A study of Homo sapiens with 45 samples.

Results

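Wild-type ZHX2 was put back into ZHX2-depleted breast cancer cells, and the transcriptome was compared with that of depleted cells carrying the vector alone. All 6 libraries of these groups were used, 3 per group, of 45 libraries in the series, and all 14302 genes that passed the filter on low counts were tested, of 60624 listed. The 3 libraries labelled shZHX2, WT came from T47D cells with a hairpin RNA against ZHX2 (shZHX2) and the ZHX2 form labelled WT. The 3 libraries labelled shZHX2, vector came from T47D cells with the same hairpin and the vector. The 9 other libraries of the same table served for orientation. They were 3 from shZHX2 cells with a form labelled PA, 3 from shZHX2 cells with a form labelled SA, and 3 from cells with a control hairpin and vector (shCtrl, vector). All 15 libraries were labelled hypoxia, so none of these groups is a normoxic control, and all groups carry lentiviral constructs. The labels do not say what PA and SA change, which promoter drives the forms, or which part of the transcript the hairpin targets. Nor do they state that the 3 replicates of a group came from different cultures, and every p-value here then covers only how far these libraries vary, possibly for technical reasons. The series asked which hypoxia-induced genes depend on ZHX2 and on its phase separation, and the WT against vector comparison measures which transcripts change when ZHX2 is supplied again.

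ZHX2 belongs to a small family of transcription factors that carry zinc fingers and homeodomains. In clear cell kidney cancer it accumulates when the von Hippel-Lindau protein is lost, and in triple-negative breast cancer it has been described as a partner of hypoxia-inducible factor signalling. Hypoxia-inducible factors are heterodimers of an oxygen-labile alpha subunit and ARNT, and in low oxygen they switch on genes of glucose uptake, glycolysis, collagen modification and angiogenesis. T47D is an established luminal human breast cancer line that expresses the oestrogen and progesterone receptors.

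Total gene counts were 22896310, 18413933 and 19009440 in the shZHX2 WT libraries, and 19929402, 22356373 and 24760885 in the shZHX2 vector libraries. Levels below are in CPM, the count of a gene relative to the total of its library, scaled by the TMM method within the table. They are not divided by gene length, so they compare samples and not genes. Replicates of a group differed by more than counting noise in every pair (chi-square per degree of freedom 1.73 to 3.52), so none was treated as a duplicate. On the first principal component, which held 53.9% of the variance, the WT libraries lay between -42.9 and -42.1, the vector libraries between 33.8 and 34.7, and the shCtrl libraries between -43.4 and -42.4. On the second, with 14% of the variance, WT libraries lay between -27.4 and -26.6, vector libraries between 2.51 and 2.98, and shCtrl libraries between 27 and 28. The summed level of 8 luminal markers (KRT8, KRT18, KRT19, EPCAM, CDH1, GATA3, FOXA1 and ESR1) was 44200 to 44870 CPM with WT and 30970 to 32270 CPM with vector. With WT, CDH1 averaged 642.5, GATA3 336.2, EPCAM 230.5 and ESR1 43.5 CPM, so most of the sum came from the keratins and FOXA1. Of 4 basal markers, 3 were under 1 CPM in both groups, and KRT17 carried the sum of 1260 to 1266 CPM with WT and 1982 to 2029 CPM with vector. Of 5 fibroblast markers, 4 were under 1 CPM, and the sum, mostly COL1A1, was 12.98 to 15.59 CPM with WT and 27.65 to 30.17 CPM with vector. The sums of 3 endothelial and 5 leukocyte markers stayed below 1 CPM in every library. The part of KRT17 and COL1A1 in the results was not tested.

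ZHX2 itself (ENSG00000178764, chromosome 8, 122781394 to 122974512, plus strand, GRCh38) stood at 74, 71.8 and 71.3 CPM in the 3 WT libraries and at 7.07, 6.24 and 7.27 CPM in the 3 vector libraries. Every WT library was above every vector library, and the fitted difference was 10.5-fold (log2 fold change 3.40, SE 0.06, adjusted p = 4.87e-60). The level with WT was also above the 32 ± 1.99 CPM of shCtrl cells (SD, n = 3; log2 fold change 1.18, SE 0.05, adjusted p = 7.21e-36). The counts do not separate the transcript of the added form from that of the endogenous gene. Its relative ZHX1, which can pair with ZHX2, was at 13.1, 16.4 and 15.4 CPM with WT and 15.1, 14.4 and 13.1 CPM with vector and was not called (log2 fold change 0.07, SE 0.08, adjusted p = 0.403). ZHX3, the other relative measured, fell to 25.7 CPM with WT, against 37.6 CPM with vector (log2 fold change -0.55, SE 0.06, adjusted p = 3.59e-14). For ZHX1 the estimate was -0.25 after a correction for GC content and transcript length, and -0.02 was the median of the 3 family members when libraries were scaled by their totals alone.

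The response covered most of the expressed genes. At a Benjamini-Hochberg adjusted p under 0.05 in edgeR's quasi-likelihood test, 5015 genes were higher with WT than with vector (35.1% of those tested) and 4950 were lower (34.6%). With a change of at least 2-fold as well, 1018 were higher (7.12%) and 1129 lower (7.89%). The WT and vector libraries did not overlap for 10133 genes (70.8%). The median log2 fold change of all genes was 0.00. The spread between replicates was small, with a biological coefficient of variation of 3.16%, so even modest differences passed the threshold. Where the test asked for a change beyond 1.2-fold, 3531 genes were higher and 3521 lower.

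The direction of change went with the base composition of the transcript. Genes at least 2-fold higher with WT had a median GC content of 43.9% and genes at least 2-fold lower one of 56.4%, against 49.4% for all genes tested. In the tenth of genes with the lowest GC content, 62% were called higher with WT and 8.5% lower, with a median log2 fold change of 0.45. In the tenth with the highest GC content, 18.5% were called higher and 57.6% lower, with a median of -0.35. A correction per library for GC content and length, fitted over all genes, left 4861 genes higher and 4543 lower, of which 7797 were calls of the uncorrected fit in the same direction. The source of the trend was not tested. Medians with this correction are given below beside the uncorrected ones for most gene lists.

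**Figure D1:**
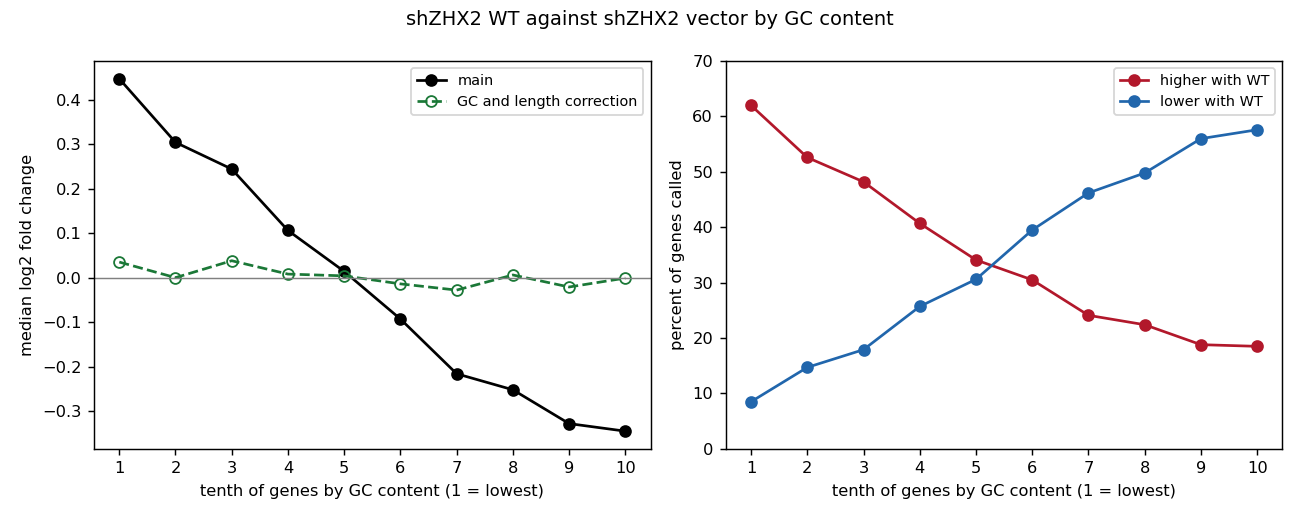
Genes were split into 10 equal bins by the GC content of their longest transcript (x axis, 1 lowest). The left panel plots the median log2 fold change of WT against vector, before and after the GC and length correction, and the right panel plots the percent of genes called higher or lower with WT, which cross near the middle bins. The uncorrected median declines over the bins, with 0.45 in the lowest and -0.35 in the highest, and the corrected one stays within 0.04 of 0.

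DKK1, a secreted inhibitor of WNT signalling (chromosome 10, 52314296 to 52318042, plus strand), showed the largest rise. It was at 20.1, 19.6 and 19.4 CPM in the WT libraries, against 0.909, 1.18 and 1.63 CPM in the vector libraries (log2 fold change 3.96, SE 0.13, adjusted p = 1.18e-41), a 15.6-fold difference. SEMA3C, a secreted semaphorin, had 514, 513 and 507 CPM in WT libraries and 78.6, 73.8 and 74 CPM in vector libraries (log2 fold change 2.76, SE 0.03, adjusted p = 5.51e-72). ID2, an inhibitor of basic helix-loop-helix factors, had 222, 222 and 234 CPM with WT and 47.5, 43.1 and 43.3 CPM with vector (log2 fold change 2.34, SE 0.04, adjusted p = 1.06e-63). The 15 largest rises were taken only from genes whose WT and vector libraries did not overlap. Their lack of overlap is therefore no separate result. Also among the 15 largest rises were LDLRAD4 (a negative regulator of TGF-beta signalling, log2 fold change 3.08), AFAP1L2 (2.90), TFPI (an inhibitor of tissue factor coagulation, 2.74), GJA1 (the gap junction protein connexin 43, 2.59), LBHD1 (2.46), NAALADL2 (2.32), MATN3 (a cartilage matrix protein, 2.29), LXN (a carboxypeptidase inhibitor, 2.24), LMO7 (2.23) and HMMR (a hyaluronan and spindle binding protein, 2.19). The 15, ZHX2 included, spanned 4.57-fold to 15.6-fold.

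Levels with WT were also set beside those of shCtrl cells, which have their own ZHX2; the WT against vector and WT against shCtrl comparisons share the WT libraries. Over all genes, 3882 were higher with WT than in shCtrl cells (27.1%) and 3874 lower (27.1%), and 234 and 347 of them differed by at least 2-fold. Of the 14 genes other than ZHX2 with the largest rises, 7 were above shCtrl with WT, 1 (HMMR) was below and 6 were not called. DKK1 averaged 19.7 ± 0.361 CPM with WT and 15.5 ± 0.791 CPM in shCtrl cells (log2 fold change 0.35, adjusted p = 0.000639). MATN3 stood furthest from shCtrl among them, at 12.7 ± 0.489 CPM with WT and 4.99 ± 0.408 CPM in shCtrl cells.

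**Figure D2:**
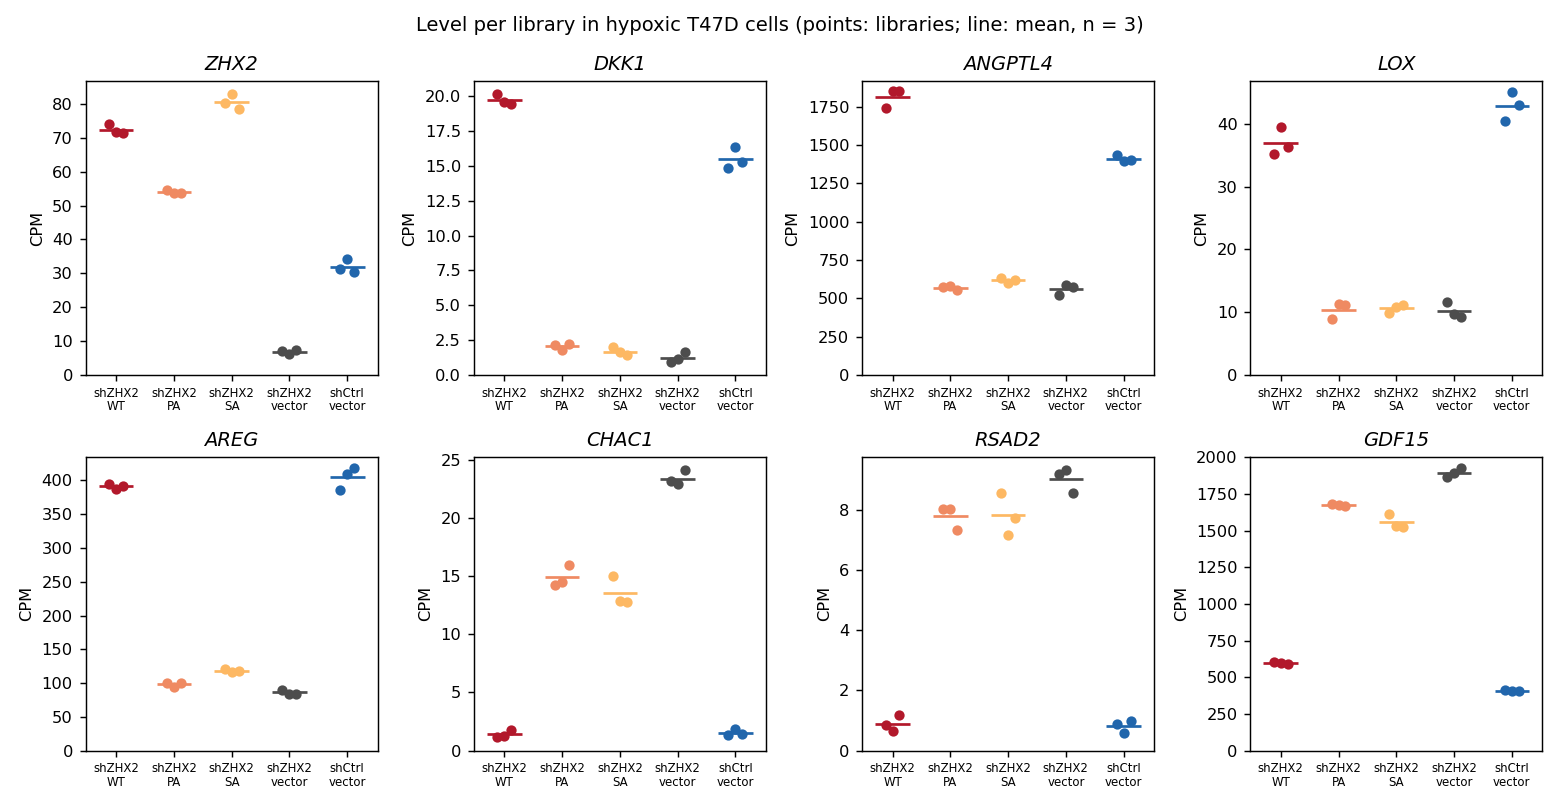
Each panel plots the level of 1 gene in CPM (linear axis from 0) in each of the 15 libraries, with a line at the mean of the 3 libraries of a group. In DKK1, ANGPTL4, LOX and AREG the WT libraries lie far above the PA, SA and vector libraries and near the shCtrl libraries, and in CHAC1, RSAD2 and GDF15 they lie far below the vector libraries. For ZHX2, the WT, PA and SA libraries all lie above the shCtrl libraries.

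Mitochondrial transfer RNA genes led the falls, followed by CHAC1. CHAC1, a glutathione-degrading enzyme induced by the stress factor ATF4 (chromosome 15, 40952962 to 40956519, plus strand), was at 1.18, 1.23 and 1.76 CPM in the WT libraries, against 23.1, 22.9 and 24.1 CPM in the vector libraries (log2 fold change -4.08, SE 0.12, adjusted p = 7.64e-45). RSAD2, which encodes the antiviral protein viperin, was at 0.851, 0.643 and 1.2 CPM with WT and 9.19, 9.32 and 8.54 CPM with vector (log2 fold change -3.32, SE 0.16, adjusted p = 1.06e-30). IFNL1, a type III interferon, was at 2.69, 2.4 and 2.39 CPM with WT and 14.3, 15.1 and 16 CPM with vector (log2 fold change -2.59, SE 0.11, adjusted p = 6.14e-34). Like the rises, the 15 largest falls were taken only from genes without overlap between WT and vector libraries. Among the 15 largest falls were also HSPA6 (an inducible heat shock protein, log2 fold change -3.68), STMN4 (-3.33), the long non-coding RNA MIR22HG (-3.02), INHBE (an inhibin beta subunit, -2.93), KIF21B (a kinesin, -2.81), the netrin receptor UNC5B (-2.66), EPPK1 (epiplakin, -2.65), MAPK8IP2 (-2.65), PARS2 (the mitochondrial prolyl-tRNA synthetase, -2.62) and TMEM104 (-2.57). The counts of HSPA6, which shares sequence with other HSP70 genes, are uncertain where reads could fit a copy. Of the 15, 8 were also below shCtrl with WT, 2 (STMN4 and IFNL1) were above and 5 were not called.

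Gene groups were then described from 25 lists with 467 distinct genes, of which 430 were tested. Of these, 219 were higher with WT and 157 lower. Each count of members for WT against vector below reads against the 35.1% higher and 34.6% lower of all genes tested. Each median of that comparison reads against the 0.00 of all genes. Counts for WT against shCtrl read against 27.1% higher and 27.1% lower of all genes, and their medians against -0.01.

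**Figure D3:**
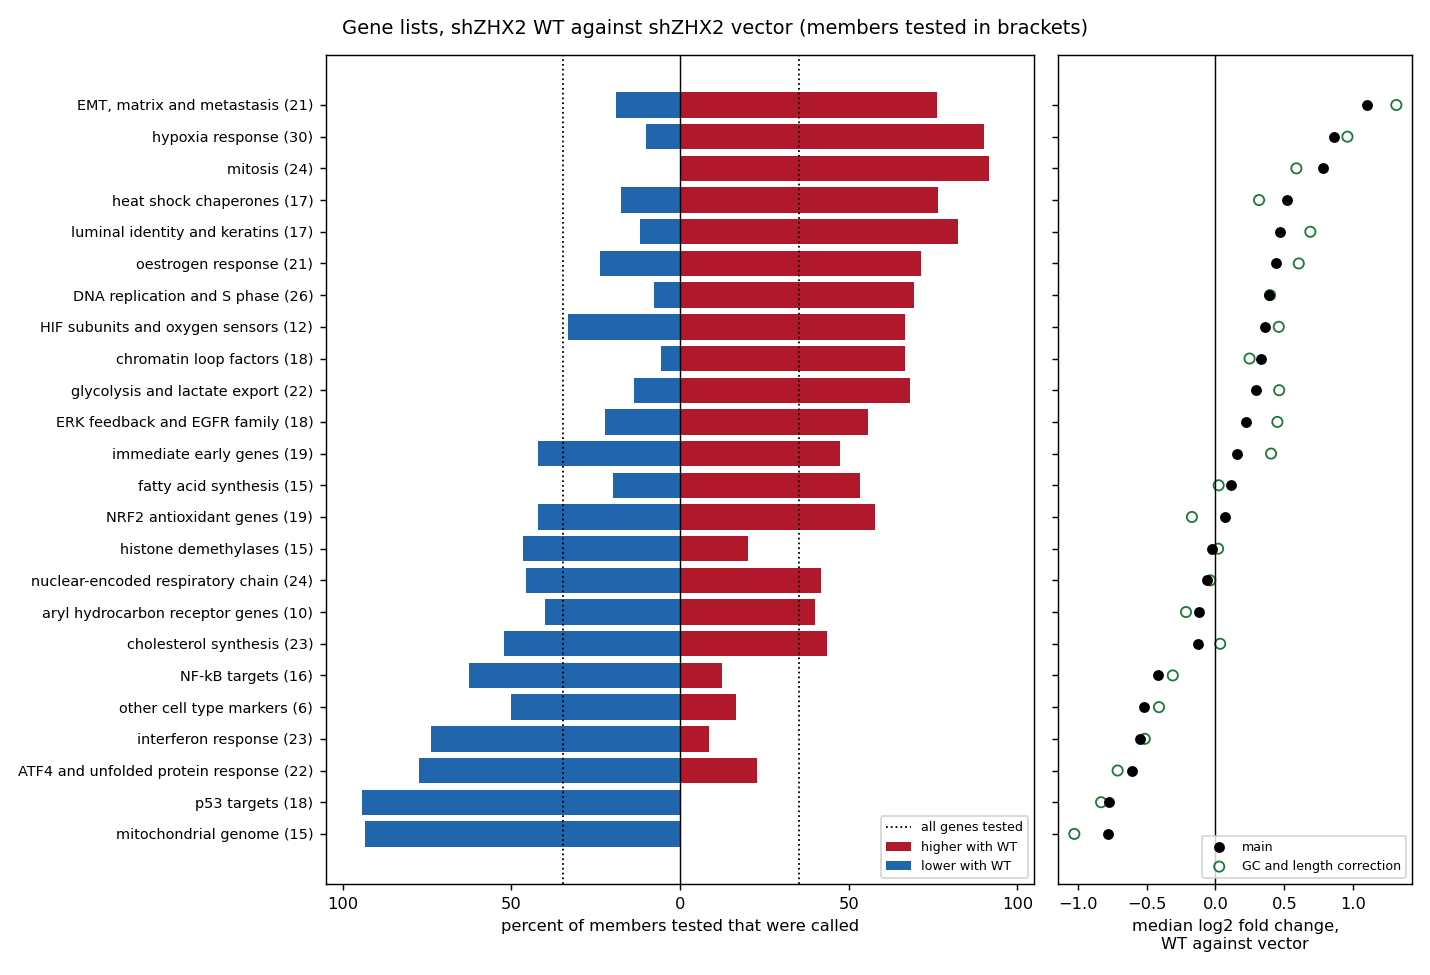
The left panel plots, for each gene list with at least 6 members tested, the percent called higher (red, right) and lower (blue, left) with WT than with vector, with dotted lines at the percent over all genes tested. The right panel plots the list's median log2 fold change before (filled) and after (open) the GC and length correction. The EMT and matrix list and the hypoxia response list have the highest medians, 1.10 and 0.86, and the p53 target and mitochondrial genome lists the lowest, -0.77 and -0.78.

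Of 30 hypoxia response genes tested, 27 rose with WT, 12 of them at least 2-fold, and 3 fell, with a median log2 fold change of 0.86 (0.96 with the GC and length correction). The largest rises with ample counts were in genes of collagen modification and lipid metabolism. LOX, the lysyl oxidase that crosslinks collagen, was at 35.1, 39.5 and 36.3 CPM in the WT libraries and 11.6, 9.63 and 9.15 CPM in the vector libraries (log2 fold change 1.88, SE 0.07, adjusted p = 1.45e-32). PLOD2, a collagen lysyl hydroxylase, was at 256, 253 and 243 CPM with WT and 74, 74.2 and 70.2 CPM with vector (log2 fold change 1.79, SE 0.03, adjusted p = 3.98e-58). ANGPTL4, a secreted inhibitor of lipoprotein lipase, was at 1741, 1851 and 1851 CPM with WT and 521, 585 and 576 CPM with vector (log2 fold change 1.69, SE 0.03, adjusted p = 1.17e-38). All 3 had every WT library at more than 2-fold of every vector library. The glycogen-targeting subunit PPP1R3C had the largest estimate (log2 fold change 3.08), from 38 counts with WT and 5 with vector. INSIG2 (1.54), the kinase PDK1 (1.32), the mitophagy receptor BNIP3L (1.31) and MXI1 (1.28) rose as well. The classical markers CA9 and VEGFA moved little: CA9 was at 204, 209 and 205 CPM with WT and 173, 167 and 176 CPM with vector (log2 fold change 0.26, SE 0.03, adjusted p = 1.86e-12), and VEGFA at 718, 697 and 672 CPM and 611, 611 and 606 CPM (log2 fold change 0.19, SE 0.03, adjusted p = 1.67e-09). The falls were KDM3A (-0.13), KDM4B (-0.19) and NDUFA4L2 (-0.41, at 2.37 CPM with WT and 3.11 CPM with vector). NDUFA4L2 lost its call without WT replicate 1 (adjusted p = 0.182), WT replicate 2 (0.0763) or vector replicate 3 (0.271), with DESeq2 (0.0866) and without the low count filter (0.0612). With the GC and length correction NDUFA4L2 stood at -0.12 (adjusted p = 0.568) and KDM4B at 0.19. In a separate shRNA experiment, 15 of the 30 genes were higher with shZHX2 than with shCtrl in hypoxia and 7 lower (median 0.12). Over all genes tested there, 33.6% were higher and 33.2% lower. LOX (log2 fold change 0.49) was among the higher and ANGPTL4 (-1.19) among the lower. PLOD2 (0.083, adjusted p = 0.183) was not called with shZHX2 there. In shCtrl cells of that experiment, PLOD2 was lower in hypoxia than in normoxia (log2 fold change -0.899, adjusted p = 2e-23). LOX (4.219) and ANGPTL4 (4.965) were higher in hypoxia.

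The promoter of LOX is shown because LOX led the well-counted hypoxia genes and the hypoxia-inducible factors bind a short core. The window runs over 250 bases before and 50 after the gene's start in RefSeq (GRCh38.p14, chr5:122078210-122078509, minus strand, written 5′ to 3′ along the gene), and capitals mark ACGTG or GCGTG on either strand.
LOX: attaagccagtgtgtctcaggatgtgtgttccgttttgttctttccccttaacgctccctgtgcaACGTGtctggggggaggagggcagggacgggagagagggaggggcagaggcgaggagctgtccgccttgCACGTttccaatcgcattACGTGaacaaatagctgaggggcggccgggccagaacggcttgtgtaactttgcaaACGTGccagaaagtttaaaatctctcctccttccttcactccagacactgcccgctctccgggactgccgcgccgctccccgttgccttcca
The window held 4 such matches, beginning at positions -185, -116, -98 and -42 from the start. The core is short: it was present in 48.4% of 35116 promoter windows of this length, and in 19 of the 25 hypoxia response genes with a window in the table (76%). A match describes the letters and not a binding site.

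Among 12 HIF subunits and oxygen sensors, 8 rose and 4 fell (median 0.36, 0.46 with the correction). HIF1A, the main oxygen-labile subunit, was at 48.1, 48.2 and 53 CPM with WT and 29.7, 30.2 and 27.7 CPM with vector (log2 fold change 0.77, SE 0.05, adjusted p = 1.14e-21). EPAS1, which encodes HIF-2 alpha, was at 2.13, 2.92 and 1.76 CPM with WT and 4.64, 3.62 and 4.21 CPM with vector (log2 fold change -0.87, SE 0.16, adjusted p = 1.36e-06). The 2 alpha subunits therefore moved in opposite directions, with HIF1A the more highly counted. ARNT, their common partner, rose by a log2 fold change of 0.35, the prolyl hydroxylases EGLN3 and EGLN1 by 1.16 and 0.78, and CITED2, which competes with the alpha subunits for a coactivator, by 1.48. VHL, the ubiquitin ligase subunit that marks them for degradation, changed by -0.76. In the separate shRNA experiment, 5 of the 12 genes were higher with shZHX2 than with shCtrl in hypoxia and 2 lower (median 0.15). Over all genes tested there, 33.6% were higher and 33.2% lower. HIF1A (log2 fold change 0.67) and EGLN3 (0.95) were among the higher, and CITED2 (-1.08) and ARNT (-0.58) among the lower.

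Of 22 genes of glycolysis and lactate export, 15 rose and 3 fell (median 0.29, 0.46 with the correction). LDHA, which turns pyruvate into lactate, stood at 6644, 6638 and 6676 CPM with WT and 2890, 2885 and 2899 CPM with vector (log2 fold change 1.2, SE 0.02, adjusted p = 1.52e-55). SLC2A1, the main glucose transporter, stood at 5614, 5718 and 5775 CPM and 3082, 3110 and 3153 CPM (log2 fold change 0.87, SE 0.02, adjusted p = 5.45e-46). Replicates of these abundant transcripts differed by a few percent, and the groups were far apart. SLC2A3 rose most (log2 fold change 2.11, at 6.35 CPM with WT and 1.47 CPM with vector), although reads shared with its near copy SLC2A14 make its count uncertain. The middle of the pathway moved little: PGK1 (-0.01), ALDOA (0.03), ENO2 (0.06) and PFKFB4 (0.02) were not called, and each of them passed the threshold in 1 direction or the other under another scaling or the GC and length correction. The muscle phosphofructokinase PFKM fell (-0.52). Without WT replicate 2 or vector replicate 2, the list had 1 fall in place of 3.

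Oestrogen-responsive and luminal genes were mostly higher. Of 21 oestrogen response genes tested, 15 rose, 6 of them at least 2-fold, and 5 fell (median 0.44, 0.60 with the correction). ESR1, the oestrogen receptor, was at 44.7, 43 and 42.8 CPM in the WT libraries and 13.7, 15.9 and 13.7 CPM in the vector libraries (log2 fold change 1.59, SE 0.06, adjusted p = 3.23e-37), and PGR, the progesterone receptor and a target of it, was at 23.5, 24.7 and 24.2 CPM and 10.8, 11.1 and 9.52 CPM (log2 fold change 1.21, SE 0.07, adjusted p = 4.07e-25). AREG, the EGF receptor ligand amphiregulin, was at 395, 388 and 392 CPM with WT and 90.3, 83.8 and 84 CPM with vector (log2 fold change 2.19, SE 0.03, adjusted p = 1.8e-64). The trefoil peptides went the other way: TFF3 was at 31.3, 29.9 and 31 CPM with WT and 117, 119.9 and 121 CPM with vector (log2 fold change -1.95, SE 0.04, adjusted p = 1.78e-53), and TFF1 changed by -0.51. Of 17 luminal identity genes and keratins, 14 rose and 2 fell (median 0.47, 0.69 with the correction), with GATA3, a luminal transcription factor, at 327, 338 and 344 CPM with WT and 132, 126 and 128 CPM with vector (log2 fold change 1.39, SE 0.03, adjusted p = 1.85e-53). The adhesion genes CDH1 and EPCAM rose by 0.86 and 0.79. AGR2 (-0.33) and TFAP2A (-0.18) fell. Fewer cells of a state and less RNA per cell cannot be told apart in such bulk samples.

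The highest median of all lists belonged to EMT, matrix and metastasis genes: of 21 tested of 30 listed, 16 rose, 13 of them at least 2-fold, and 4 fell (median 1.10, 1.31 with the correction). Beside LOX, the collagenase MMP1 was at 3.88, 4.45 and 2.79 CPM with WT and 0.858, 0.633 and 0.94 CPM with vector (log2 fold change 2.18, SE 0.21, adjusted p = 3.56e-15), and the matrix protein THBS1 at 80.5, 90.8 and 86.3 CPM and 24.7, 23.1 and 23.4 CPM (log2 fold change 1.85, SE 0.05, adjusted p = 1.71e-49). TGFB2 (2.16), the integrin subunit ITGB6 (1.94), CCN1 (1.44) and CD44 (1.42) rose too. The members did not move as the list's name would have it: SNAI1, a repressor of E-cadherin, was at 2.13, 2.05 and 1.48 CPM with WT and 5.15, 5.65 and 4.17 CPM with vector (log2 fold change -1.39, SE 0.16, adjusted p = 1.92e-12), the epithelial CDH1 rose, VIM was under about 1 CPM in both groups and not called, and CDH2, ZEB1, ZEB2, SNAI2 and TWIST1 did not pass the filter on low counts.

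Growth signalling genes gave a mixed picture. Of 18 ERK feedback and EGFR family genes, 10 rose and 4 fell (median 0.22, 0.45 with the correction). EGFR was at 15, 13.3 and 12.9 CPM with WT and 7.72, 7.33 and 7.92 CPM with vector (log2 fold change 0.85, SE 0.09, adjusted p = 7.01e-13), and the feedback inhibitor SPRY1 rose by 1.22. The ephrin receptor EPHA2 fell (6.62, 7.49 and 5.8 CPM with WT and 14.4, 16.6 and 14.8 CPM with vector, log2 fold change -1.21), as did ETV4 (-0.90), and DUSP6, SPRY4 and SPRED1 did not pass the filter. Of 19 immediate early genes, 9 rose and 8 fell (median 0.16, 0.40 with the correction, where 12 rose and 4 fell). FOS was at 164, 162 and 164 CPM with WT and 39.2, 39.4 and 41.8 CPM with vector (log2 fold change 2.02, SE 0.04, adjusted p = 1.05e-59), and MYC at 583, 587 and 579 CPM and 203, 205 and 206 CPM (log2 fold change 1.51, SE 0.03, adjusted p = 8.8e-58). In both the WT libraries were close to each other and about 3-fold to 4-fold above the vector libraries. EGR1 rose by 1.21, and the nuclear receptor NR4A1 (-0.97) and the FOS relative FOSB (-1.53) fell.

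Cell cycle genes were higher with WT than with vector. Of 26 genes of DNA replication and S phase, 18 rose and 2 fell (median 0.39, 0.40 with the correction). UHRF1, which maintains DNA methylation after replication, rose most, by 1.32. Of 24 mitosis genes, 22 rose, 7 of them at least 2-fold, and none fell (median 0.78, 0.59 with the correction); AURKB (-0.03) and MKI67 (-0.04) were not called. CDK1, the mitotic kinase, was at 42.1, 43.7 and 44.6 CPM with WT and 18.7, 18.5 and 17.8 CPM with vector (log2 fold change 1.25, SE 0.06, adjusted p = 3.32e-33), and the cyclin CCNB1 rose by 1.17. Set beside shCtrl cells, the mitosis list stood lower: 0 of 24 were higher with WT than in shCtrl cells and 20 were lower, with a median log2 fold change of -0.57. MKI67, the proliferation marker, averaged 20.3 ± 1.13 CPM with WT, 20.9 ± 0.514 CPM with vector and 62 ± 1.78 CPM in shCtrl cells.

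Stress genes moved in both directions. Of 22 genes of the ATF4 and unfolded protein response, 17 fell, 7 of them at least 2-fold, and 5 rose (median -0.61, -0.71 with the correction). DDIT3, which encodes the stress factor CHOP, was at 14.6, 16 and 15.2 CPM in the WT libraries and 51.2, 50.2 and 52.8 CPM in the vector libraries (log2 fold change -1.75, SE 0.06, adjusted p = 1.46e-41). ASNS, the asparagine synthetase, was at 3.36, 2.63 and 2.73 CPM with WT and 9.19, 9.23 and 9.35 CPM with vector (log2 fold change -1.66, SE 0.12, adjusted p = 8.83e-21), and HERPUD1, a component of endoplasmic reticulum degradation, at 71, 68.8 and 69 CPM and 181, 198 and 192 CPM (log2 fold change -1.45, SE 0.03, adjusted p = 2.66e-51). ATF4 itself fell by 0.60 on the log2 scale and the chaperone HSPA5 by 0.78. The rises, DDIT4 (0.72) and VLDLR (0.70) among them, include genes also known to respond to hypoxia. Of 17 heat shock chaperones, 13 rose and 3 fell (median 0.52, 0.32 with the correction), with the rises led by HSP90AA1 at 1081, 1075 and 1091 CPM with WT and 367, 349 and 350.4 CPM with vector (log2 fold change 1.61, SE 0.03, adjusted p = 1.77e-60) and by the mitochondrial chaperonin HSPD1 (1.39). The co-chaperone DNAJB1 (-0.34) fell, and HSPA6, an inducible heat shock protein outside the list, fell by 3.68 on the log2 scale.

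The CHAC1 promoter is shown as that of the protein-coding gene with the largest fall and a textbook ATF4 target (RefSeq, GRCh38.p14, chr15:40953221-40953520, plus strand). Capitals mark TGATGCAA, the core of the amino acid response element, on either strand.
CHAC1: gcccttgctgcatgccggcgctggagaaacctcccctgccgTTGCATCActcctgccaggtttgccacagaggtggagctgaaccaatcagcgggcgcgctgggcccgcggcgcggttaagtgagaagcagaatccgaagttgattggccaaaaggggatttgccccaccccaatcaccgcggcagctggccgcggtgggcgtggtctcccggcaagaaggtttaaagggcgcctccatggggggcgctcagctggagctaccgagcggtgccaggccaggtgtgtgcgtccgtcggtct
It held 1 match, on the minus strand and beginning at -209. The core was found in 0.866% of all promoter windows and in 2 of the 20 genes of the list with a window, CHAC1 and HERPUD1.

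Of 23 interferon response genes tested, 17 fell, 4 of them at least 2-fold, and 2 rose (median -0.55, -0.51 with the correction). IFIT2, an antiviral RNA-binding protein, was at 7.52, 7.19 and 6.31 CPM in the WT libraries and 20.6, 19.5 and 18.4 CPM in the vector libraries (log2 fold change -1.47, SE 0.08, adjusted p = 3.45e-27). OASL was at 25.1, 24.9 and 27 CPM with WT and 65, 73.1 and 67.7 CPM with vector (log2 fold change -1.42, SE 0.05, adjusted p = 2.32e-40), and IFI6 at 1296, 1317 and 1370 CPM and 2849, 2972 and 2971 CPM (log2 fold change -1.14, SE 0.03, adjusted p = 2.02e-49). The abundant ubiquitin-like ISG15 was at 928, 935 and 926 CPM with WT and 1809, 1809 and 1889 CPM with vector (log2 fold change -0.98, SE 0.03, adjusted p = 5.14e-47). In each the groups stood apart without overlap. IRF9, a subunit of the factor that drives these genes, rose (0.64), as did IFIT1 (0.29), and IFI44 (-0.08), HLA-B (-0.11) and MX1 (-0.32) were not called. With the GC and length correction IFI44 (-0.51) was called lower and IFIT1 (0.07) was not called. Interferon genes themselves were seen among the falls and picked after their values were known. IFNB1, the beta interferon, was at 0.851, 0.76 and 0.398 CPM with WT and 4.34, 4.61 and 4.17 CPM with vector (log2 fold change -2.67, SE 0.22, adjusted p = 1.8e-18), and the type III interferons IFNL2 and IFNL3, near copies of each other, changed by -1.91 and -2.12. All 4 with IFNL1 were lower with WT. Set beside shCtrl cells, 16 of the 23 response genes were higher with WT and 4 lower (median 0.19).

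The promoters of IFIT3, an interferon-induced gene, and of IFNL1 are shown as 2 windows chosen for holding the interferon-stimulated response element core, which the windows of RSAD2 and IFNB1, both with larger falls, did not hold (RefSeq, GRCh38.p14; IFIT3 chr10:89327747-89328046 and IFNL1 chr19:39296157-39296456, both plus strand). Capitals mark GAAANNGAAA on either strand, with N for any base.
IFIT3: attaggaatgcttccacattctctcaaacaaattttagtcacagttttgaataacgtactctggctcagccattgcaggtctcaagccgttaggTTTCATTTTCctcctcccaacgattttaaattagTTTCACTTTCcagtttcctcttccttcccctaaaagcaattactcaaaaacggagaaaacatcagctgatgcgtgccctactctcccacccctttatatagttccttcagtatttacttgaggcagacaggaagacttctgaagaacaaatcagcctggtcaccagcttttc
IFNL1: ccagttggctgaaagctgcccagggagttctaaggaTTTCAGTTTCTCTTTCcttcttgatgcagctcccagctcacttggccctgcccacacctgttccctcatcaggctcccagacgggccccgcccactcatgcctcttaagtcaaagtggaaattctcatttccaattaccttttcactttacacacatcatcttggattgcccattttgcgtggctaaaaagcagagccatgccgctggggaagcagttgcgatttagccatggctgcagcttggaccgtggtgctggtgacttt
IFIT3 held 2 matches, beginning at -156 and -122, and IFNL1 held 2 that overlap, at -214 and -208, all on the minus strand. IFIT3 was at 5.62, 6.49 and 5.4 CPM with WT and 12.4, 10.8 and 12.8 CPM with vector (log2 fold change -1.04, SE 0.10, adjusted p = 3.13e-15). The core was present in 3.57% of all promoter windows and in 13 of the 18 interferon response genes with a window (72.2%).

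Of 16 NF-kB targets tested, 10 fell and 2 rose (median -0.42, -0.31 with the correction). RELB, a subunit of the non-canonical pathway, was at 21.3, 21.1 and 21.8 CPM with WT and 48.3, 48.3 and 48.2 CPM with vector (log2 fold change -1.17, SE 0.05, adjusted p = 3.82e-33). The falls with the largest estimates, CCL20 (-1.55), CXCL1 (-1.49) and CXCL2 (-1.38), were in chemokines under 1 CPM in both groups, and CXCL1 lost its call without WT replicate 1 (adjusted p = 0.0816) or without vector replicate 1 (adjusted p = 0.082). The adhesion molecule ICAM1 rose (0.65), and NFKBIA (0.03) and TNFAIP3 (-0.09), the feedback inhibitors, were not called.

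Of 18 p53 targets, 17 fell, 7 of them at least 2-fold, and none rose (median -0.77, -0.83 with the correction). GDF15, a secreted stress cytokine, was at 604, 596 and 592 CPM with WT and 1867, 1889 and 1927 CPM with vector (log2 fold change -1.67, SE 0.03, adjusted p = 1.45e-62). CDKN1A, which encodes the cyclin-dependent kinase inhibitor p21, was at 1915, 1951 and 1951 CPM with WT and 3894, 3892 and 3960 CPM with vector (log2 fold change -1.01, SE 0.03, adjusted p = 1.5e-49). FDXR, a mitochondrial ferredoxin reductase, was at 81.6, 84.4 and 84.2 CPM and 201, 207 and 209 CPM (log2 fold change -1.30, SE 0.03, adjusted p = 5.65e-49). In all 3 every WT value lay below every vector value. AEN (-1.25), TP53INP1 (-1.19), SESN2 (-1.15) and ZMAT3 (-1.07) fell likewise, MDM2 changed by -0.21, and SESN1 (-0.07) was not called. Several of these genes, GDF15, SESN2 and PMAIP1 among them, are also known to respond to ATF4 signalling, and T47D carries a mutant p53. The part of ATF4 or p53 in these falls was not tested. Set beside shCtrl cells, 10 of the 18 were higher with WT and 4 lower (median 0.11).

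Transcripts of the mitochondrial genome fell together. Of 20 mitochondrial genes tested, 19 were lower with WT and none was higher, with a median log2 fold change of -1.44. Of the 13 protein-coding ones, 12 fell. MT-CO1, a subunit of cytochrome oxidase, was at 454, 479.8 and 471 CPM in the WT libraries and 1444, 1478 and 1501 CPM in the vector libraries (log2 fold change -1.65, SE 0.03, adjusted p = 1.17e-61), and MT-ND1, a subunit of complex I, at 24.2, 28 and 26.2 CPM and 129.8, 138 and 137 CPM (log2 fold change -2.38, SE 0.10, adjusted p = 7.69e-10). The ribosomal RNA MT-RNR2 averaged 1251 ± 12.4 CPM with WT and 3253 ± 30.8 CPM with vector. The transfer RNA genes MT-TN (chromosome M, 5657 to 5729, minus strand), MT-TC and MT-TY stood far apart from the rest. MT-TY had few counts, at a mean of 0.12 CPM with WT and 2.23 CPM with vector (log2 fold change -4.10, SE 0.38). MT-TN was at 0.898, 0.526 and 0.683 CPM with WT and 54.1, 53.9 and 57.7 CPM with vector (log2 fold change -6.26, SE 0.15, adjusted p = 2.85e-21), and MT-TC at 1.28, 1.11 and 1.14 CPM and 40.8, 49.3 and 50.8 CPM (log2 fold change -5.31, SE 0.10, adjusted p = 1.12e-55). Mature transfer RNAs are short and carry no long poly(A) tail, so polyA libraries capture them poorly, and without a stated strand setting their reads cannot be told apart from those of the transcript on the other strand. Mitochondrial genes took 0.312% to 0.333% of all counts in WT libraries and 0.785% to 0.807% in vector libraries, against 0.749% to 0.778% in shCtrl libraries, 1.16% to 1.26% with PA and 1.12% to 1.19% with SA. WT libraries thus stood below all the other groups, shCtrl included. Leaving all mitochondrial genes out of the fit gave 5007 genes higher and 4943 lower. Of 24 nuclear-encoded respiratory chain genes, 10 rose and 11 fell (median -0.06, -0.04 with the correction).

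**Figure D4:**
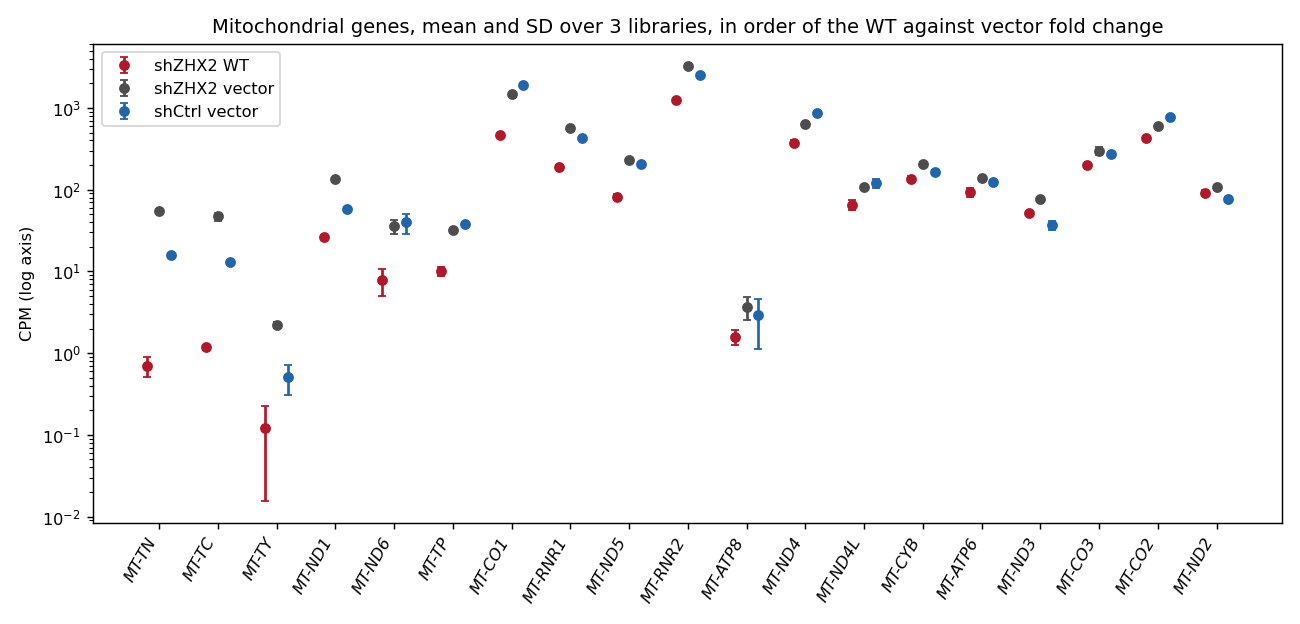
The mean level in CPM (log axis) of 19 mitochondrial genes is plotted for shZHX2 WT, shZHX2 vector and shCtrl vector cells, with error bars of 1 SD over 3 libraries, in the order of the WT against vector fold change; MT-TL1, with about 1 count per WT library, is not drawn. WT points lie below vector points for every gene drawn, by most in MT-TN, MT-TC and MT-TY and by least in MT-ND2, whose call was lost without WT replicate 1, vector replicate 1 or vector replicate 2.

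Lipid genes showed no common direction. Of 23 cholesterol synthesis genes, 10 rose and 12 fell (median -0.12), and the sign of the median turned with the GC and length correction (0.03). Of 15 fatty acid synthesis genes, 8 rose and 3 fell (median 0.12, 0.02 with the correction). SCD, the stearoyl-CoA desaturase, was the exception in size, at 10300, 10400 and 10450 CPM with WT and 3816, 3759 and 3694 CPM with vector (log2 fold change 1.47, SE 0.02, adjusted p = 1.54e-61), while FASN was not called (0.02; 0.48 and called with the correction). The 19 NRF2 antioxidant genes had 11 rises and 8 falls with a median of 0.07, which was -0.17 with the correction and -0.03 with scaling by library totals. HMOX1, the haem oxygenase, was at 890.2, 872 and 886 CPM with WT and 1393, 1458 and 1500 CPM with vector (log2 fold change -0.72, SE 0.03, adjusted p = 1.33e-38), and AKR1C1, which shares reads with its close paralogs, changed by -1.39. Among 10 aryl hydrocarbon receptor genes, 4 rose and 4 fell (median -0.12, -0.21 with the correction), and CYP1A2 was lower with WT (-2.05) at 0.475 CPM against 1.96 CPM with vector.

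Of 18 chromatin loop factors, 12 rose and 1 fell (median 0.33, 0.25 with the correction). The cohesin subunit STAG2 was at 57, 58.3 and 56.9 CPM with WT and 25, 25.8 and 23.2 CPM with vector (log2 fold change 1.22, SE 0.05, adjusted p = 1.12e-34). CTCF, the insulator protein, was at 49.4, 47.3 and 50.6 CPM with WT and 38.8, 37.8 and 34.9 CPM with vector (log2 fold change 0.41, SE 0.05, adjusted p = 1.29e-11), and YY1 and RAD21 rose by 0.79 and 0.68. The fall was MAZ (-0.10), which turned to 0.25 with the GC and length correction and lost its call without WT replicate 2, WT replicate 3 or vector replicate 3, leaving 0 falls. Of 15 histone demethylases, 3 rose and 7 fell (median -0.03, 0.02 with the correction, where 7 rose and 6 fell), with KDM4A the lowest (-0.84).

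A separate experiment of the series grouped genes without use of these libraries. There, shZHX2 cells in hypoxia were compared with shCtrl cells in hypoxia, and shCtrl cells in hypoxia with shCtrl cells in normoxia, with 3 libraries per group and no library in common. Of 14903 genes tested there, 5006 were higher with shZHX2 (33.6%) and 4955 lower (33.2%), and 6421 were higher in hypoxia (43.1%) and 5485 lower (36.8%). Of 13060 genes tested in both tables, 35.7% were higher and 36% lower with WT than with vector. Among 1083 genes at least 2-fold lower with shZHX2 there, 503 were higher with WT (46.4%) and 271 lower (25%), with a median log2 fold change of 0.24. Among 1092 genes at least 2-fold higher with shZHX2 there, 218 were higher with WT (20%) and 459 lower (42%), with a median of -0.23. In the class lowered by depletion the share higher with WT stood above that of all genes, and in the class raised by depletion the share lower with WT did. The class shares here and below come from the fit without the GC and length correction. The part of GC content in them was not tested. The 503 genes were 10.8% of all genes higher with WT, and the 459 genes 9.76% of all genes lower with WT. Across the 13060 genes the 2 sets of log2 fold changes had a Pearson r of -0.17 and a Spearman rho of -0.16. Genes are not independent replicates, and the tables were normalised separately. The experiments also differed in library composition. Mitochondrial genes took 4.55% to 12.4% of all counts in the separate experiment, and 0.312% to 1.26% in the rescue libraries.

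The genes that the series set out to find, higher in hypoxia and lower with shZHX2, made a class of their own. Of 2637 such genes, 941 were higher with WT (35.7%) and 1127 lower (42.7%), with a median of -0.06. With at least 2-fold required of each, 123 of 326 were higher with WT (37.7%) and 92 lower (28.2%), with a median of 0.11. Of all 13060 genes tested in both tables, 35.7% were higher with WT and 36% lower. The share higher among the 2637 genes thus equalled that of all genes, and the share lower stood above it. Among the 326, the share higher stood near that of all genes and the share lower stood below it. Of the 12 with the largest falls with shZHX2, 6 were higher with WT, 4 lower and 2 not called. ISM2, a secreted protein, was at 18.2, 20.1 and 22.9 CPM with WT and 4.75, 4.75 and 5.6 CPM with vector (log2 fold change 2.01, SE 0.10, adjusted p = 6.13e-31), and CACNA1I, a calcium channel subunit, at 4.07, 3.57 and 3.24 CPM and 1.77, 1.54 and 1.51 CPM (log2 fold change 1.19, SE 0.18, adjusted p = 9.47e-09). PKP1, the desmosomal plakophilin 1, was at 48.5, 49 and 47.4 CPM with WT and 27.3, 27.5 and 26.4 CPM with vector (log2 fold change 0.84, SE 0.05, adjusted p = 2.27e-26), and ADORA2B (0.78), ICAM1 (0.65) and GALNT14 (0.23) were higher as well. GALNT14 lost its call without WT replicate 2 (adjusted p = 0.0847) or vector replicate 1 (adjusted p = 0.202). DUSP13 was at 5.86, 6.37 and 5.86 CPM with WT and 12.4, 13.5 and 14.3 CPM with vector (log2 fold change -1.16, SE 0.10, adjusted p = 5.25e-18), and SMIM10L2A (-0.95), SHF (-0.67) and TUBB2B (-0.43) were also lower. ID1 (-0.03, and 0.18 with a call under the GC and length correction) and C15orf48 (0.29, adjusted p = 0.0666) were not called. Of the 8 genes with the largest rises with shZHX2, C12orf76 (-1.24), MPZL3 (-0.98), SYP (-0.97) and CYP1A1 (-0.35) were lower with WT, and PPP1R3E (0.58), GPD1L (0.61), LIN7A (0.60) and MAN1A1 (0.19; -0.003 and no call with the correction) were higher. CYP1A1, an aryl hydrocarbon receptor target, had risen 2.85 on the log2 scale with shZHX2 in the separate experiment and stood here at 1340 CPM with WT and 1705 CPM with vector.

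**Figure D5:**
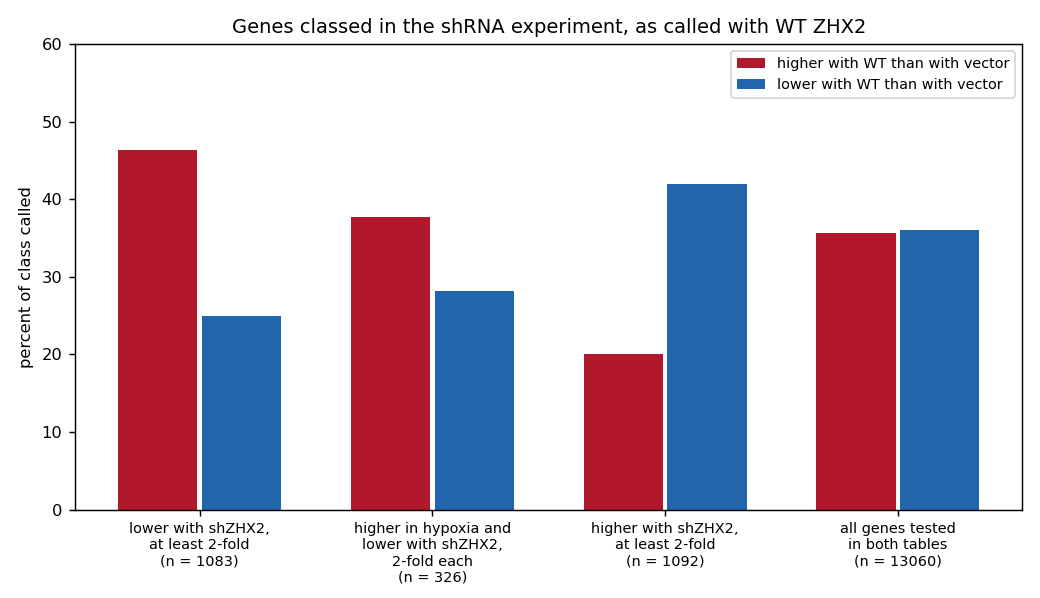
Bars give the percent of genes called higher (red) and lower (blue) with WT than with vector, for genes classed in the separate shRNA experiment and for all genes tested in both tables. Of genes at least 2-fold lower with shZHX2, 46.4% were higher with WT, and of genes at least 2-fold higher with shZHX2, 42% were lower. In the class higher in hypoxia and lower with shZHX2, at least 2-fold each, 37.7% were higher with WT and 28.2% lower. Over all genes tested in both tables, 35.7% were higher and 36% lower.

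In the table's own vector cells, 4849 genes were higher in shZHX2 vector than in shCtrl vector libraries (33.9%) and 5045 lower (35.3%); these share the vector libraries with the WT comparison, so only values are given. DKK1 had a log2 fold change of 3.96 for WT against vector and -3.61 for vector against shCtrl, ANGPTL4 1.69 and -1.33, CHAC1 -4.08 and 3.92, and GDF15 -1.67 and 2.21. In the separate experiment, of the 14 largest rises other than ZHX2, 10 were tested, 9 of them lower with shZHX2 and 0 higher. Of the 15 largest falls, 12 were tested there, 3 higher with shZHX2 and 5 lower. Over all genes tested in that experiment, 33.6% were higher with shZHX2 and 33.2% lower, and no result is drawn from the counts of the rises or of the falls. CHAC1 (-1.83) and INHBE (-3.80) were among the 5 lower with shZHX2 there.

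WT was also compared directly with the PA and SA forms, which share its libraries in both comparisons. ZHX2 stood at 72.3 ± 1.44 CPM in the WT libraries, 54 ± 0.435 CPM in those of PA and 80.5 ± 2.26 CPM in those of SA, and WT differed from both (log2 fold change 0.42 against PA and -0.15 against SA). Against PA, 4826 genes were higher with WT (33.7%) and 4742 lower (33.2%). Against SA, 4574 were higher (32%) and 4590 lower (32.1%). DKK1 was at 19.7 ± 0.361 CPM in WT cells, 2.06 ± 0.25 CPM in PA cells and 1.68 ± 0.297 CPM in SA cells (log2 fold change 3.26 against PA and 3.55 against SA). CHAC1 was at 1.39 ± 0.323 CPM in WT cells, 14.9 ± 0.95 CPM in PA cells and 13.6 ± 1.28 CPM in SA cells (-3.42 and -3.29). Of the 30 hypoxia response genes, 25 were higher with WT than with PA and 4 lower (median 0.75), and 24 were higher than with SA and 3 lower (median 0.69). Of the 23 interferon response genes, 19 were lower with WT than with PA and 18 lower than with SA. VEGFA went the other way from most of its list, at 696 ± 23.5 CPM in WT cells, 807 ± 17 CPM in PA cells and 739.5 ± 6.56 CPM in SA cells (-0.21 against PA and -0.09 against SA).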

How the data were processed

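RNA of T47D cells was measured in 45 libraries as polyA RNA, sequenced as 150 bp read pairs, per the labels. The authors deposited 4 tables of raw counts, whole numbers per gene. FastQC, HISAT2, featureCounts and DESeq2, each without a version, and hg38 are named in the submitters' processing notes. Which annotation and strand setting the counting used is not stated, so counts of overlapping, antisense and near-identical genes are uncertain. The rescue table (15 libraries) and the shRNA table (9 libraries) were used, and the hexanediol and sgRNA tables were not used here.

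After filterByExpr and TMM scaling, edgeR 4.0.16 in R 4.3.3 fitted 1 robust quasi-likelihood model to all groups of a table. A gene was called where its p-value, adjusted over all genes tested by the Benjamini-Hochberg method, was under 0.05. SE is the absolute log2 fold change over the square root of the F statistic. CPM values come from the deposited counts. Values after ± are SD over n = 3 libraries. Of 60624 identifiers, 60370 were given a symbol from the gene-name reference. Positions, GC content and length came from GENCODE 29 on GRCh38, and promoter windows from RefSeq. The correction for GC content and length used splines with 5 degrees of freedom per library. Alternatives were DESeq2 1.42.0, scaling by library totals, no filter, only the 6 libraries, the replicate block and leaving out each library. Leaving out mitochondrial genes, and a test against a fold change of 1.2 with glmTreat of edgeR, were chosen after seeing the data.

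The genes, lists and members were chosen with earlier results of these data known. The rule for named genes took ZHX2, a few sentinels, the 15 largest rises and 15 largest falls among called, non-overlapping genes with a mean log2 CPM of at least 1, up to 4 called members per list plus the largest in the other direction, and genes ranked in the shRNA table; other members named with values were picked after their values were seen. Some items that this rule names are not reported here.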

Additional observations from a re-analysis of the deposited data

How the results depend on the processing

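Scaling by library totals in place of TMM moved the median of all genes by -0.10 for WT against vector (4252 higher, 5731 lower), -0.11 against shCtrl (34.1% of calls higher, against 50.1%) and -0.25 against PA (29.4% against 50.4%), where 2913 genes were higher, against 4826; in the shRNA experiment the same scaling left 3385 genes higher in shCtrl hypoxia than in shCtrl normoxia, against 6421. For WT against vector DESeq2 called 4619 higher and 4635 lower, and no low count filter 4959 and 4878. Leaving out 1 library in turn left 4751 to 4861 higher and 4683 to 4786 lower. Same-numbered WT and vector libraries did not deviate together (correlations -0.018, -0.029 and -0.013). For WT and shCtrl, and for WT and SA, 5 libraries each matched best with their own number, at correlations up to 0.024 and 0.020. Whether replicate numbers mark a shared batch was not tested. The replicate block gave 4995 and 4934 and changed no call of the 207 named genes. Named genes not called in either fit were counted as unchanged whatever their sign. Of the 207, 185 were unchanged in call and in called direction with the GC and length correction, and 193 with scaling by library totals. Signs turned with that correction for ZHX1 (-0.245), CDT1 (0.032), MAZ (0.254, and 0.252 with the replicate block), ID1 (0.182 and 0.181), MAN1A1 (-0.003), AURKB (0.115 and 0.118) and KDM4B (0.193 and 0.192), and with scaling by library totals for FASN (a log2 fold change of -0.075), ALDOA (-0.069), PFKFB4 (-0.074) and NFKBIA (-0.07), none of them called with TMM; the cause was not tested. Genes under 1 CPM rest on few counts: CXCL1 had 10 counts in all with WT and 34 with vector, and KRT14 14 and 40, and KRT14 lost its call without WT replicate 3 (adjusted p = 0.0621) or vector replicate 2 (adjusted p = 0.0558).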

Other observations

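Gene types differed in their share of calls. Of 12176 protein-coding genes tested, 37.7% were higher with WT than with vector and 35.6% lower, with a median log2 fold change of 0.02. Of 1204 long non-coding genes, 16.5% were higher and 32.1% lower, with a median of -0.25. Of 766 pseudogenes, whose reads can come from their parent genes, 26.6% were higher and 22.3% lower. The part of depth in these shares was not tested.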
